A study of Canis lupus familiaris with 34 samples.

Results

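S100 proteins and galectins were followed across 8 kinds of canine lesion on 34 Affymetrix Canine_2 arrays, 1 array per dog. The genes were S100A4, S100A6, S100A8, S100A9, S100A10, S100A11, S100A12, LGALS1 and LGALS3. They were chosen by name, with earlier results of these data known, and are not the whole of either family. A probe set was taken as a member where the array annotation gave it exactly 1 gene symbol and that symbol was on this list, which found 19 of the 42860 non-control probe sets, and 8 of the 9 genes out of 15115 symbols on the array. S100A12 had no probe set under that rule and was not analysed here. Values are log2 intensities after RMA, the authors' summary of the probes of a probe set, so a difference of 1 is a doubling. A gene with more than 1 probe set is described by its main one, the brightest on average over the 34 arrays, and the rest are given beside it. The level of one gene was not set against the level of another, because each probe set has its own response.

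The arrays came from tumor or lesion cells of pet dogs, with no treatment named in the labels. Cultured cells made up 18 of them, namely 10 hemangiosarcoma lines, 5 osteosarcoma lines and 3 cultures from hematomas, which are non-malignant. Primary cells made up the other 16, from 1 acute lymphoblastic leukemia, 2 chronic lymphocytic leukemias, 6 diffuse large B cell lymphomas, 1 marginal zone B cell lymphoma and 6 T-zone lymphomas. Of the hemangiosarcoma lines, 6 were from golden retrievers (ChadG4, ChadG6, ChadG8, Frog, Journey and Tucker) and 4 from dogs of other breeds (Joey, a Rottweiler; DD1, a Golden Retriever x Great Pyrenees; ChadP9, a Portuguese Water Dog; and Dal4, a Dalmatian). The hematomas came from a Golden Retriever (Pippin), a Standard Poodle (Baxter) and a Keeshond (Kylie). The osteosarcomas, lymphomas and chronic lymphocytic leukemias were all from golden retrievers, and the acute leukemia was from a golden retriever mix. The study cultured the hemangiosarcoma and hematoma cells in conditions that favor endothelial growth. It took the earliest passages at hand for tumors and describes the hematoma cultures as low passage. The lines may therefore differ from the lesion they came from.

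S100 proteins are small calcium-binding proteins that change shape when calcium rises and then bind other proteins. S100A4 binds non-muscle myosin and is known from motile cells and metastasis, S100A6 is abundant in growing fibroblasts, S100A10 holds annexin A2 at the inner face of the membrane, and S100A11 binds annexin A1. S100A8 and S100A9 pair to form calprotectin, an abundant protein of neutrophils and monocytes, and S100A12 is made by the same cells. Galectins bind sugars that carry galactose, and LGALS1 and LGALS3 encode galectin-1, common in connective tissue, and galectin-3, common in macrophages, epithelium and mesenchymal cells. In the dog assembly UU_Cfam_GSD_1.0, S100A4 and S100A6 lie close to S100A8, S100A12 and S100A9 on chromosome 7, S100A10 and S100A11 are neighbors on chromosome 17, and LGALS1 and LGALS3 lie on chromosomes 10 and 8.

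Across the arrays, the medians of all probe sets lay between 5.57 and 5.77, which serves here as a mark for low values. The labelled cell types were checked against their markers. The summed signal of 5 T cell markers was 12.34 to 13.41 on the log2 scale in diffuse large B cell lymphoma and 13.86 to 14.71 in T-zone lymphoma, and that of 4 B cell markers was 12.02 to 13.08 in diffuse large B cell lymphoma and 9.58 to 12.10 in T-zone lymphoma. Every lymphoma array thus carried signal of both lymphocyte kinds. Of 6 endothelial markers, 0 lay above the array median on all 10 hemangiosarcoma arrays and 3 lay above it on none. PECAM1 averaged 3.7 there, whereas COL1A1, a fibroblast collagen, averaged 13.4. Of 4 osteoblast markers, 0 lay above the array median on all 5 osteosarcoma arrays and 2 lay above it on none. The summed signal of these 4 was 7.12 to 7.95 in osteosarcoma, 6.54 to 6.94 in hemangiosarcoma, 6.62 to 6.71 in hematoma and 6.95 to 8.13 in the primary arrays. Hybridization controls, which are added in the same amount to every sample, averaged 9.23 to 9.76 in hemangiosarcoma, 9.96 to 10.79 in osteosarcoma, 9.42 to 10.11 in hematoma and 9.97 to 11.30 in the primary arrays.

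S100A4, S100A6, S100A10, S100A11 and LGALS3 were high in all cultured cells, in chronic lymphocytic leukemia and, apart from LGALS3 on 1 array, in T-zone lymphoma, and all 5 were lower than that in both kinds of B cell lymphoma, though still above the array median on all 7 of those arrays. S100A8 and S100A9 had low values in hemangiosarcoma, where the 5 genes were high, and their highest group means in chronic lymphocytic leukemia, where the 5 were high too. LGALS1 was above the array median on all 34 arrays, with values of 5.71 to 7.52. Its 1 probe set thus stayed near the mark for low values, and its comparisons below carry that limit.

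The order of the group means differed from gene to gene. For S100A4 the order was chronic lymphocytic leukemia (14.01 ± 0.07, SD, n = 2), osteosarcoma (13.01 ± 0.92, n = 5), hemangiosarcoma (12.62 ± 0.80, n = 10), T-zone lymphoma (12.43 ± 0.94, n = 6) and hematoma (11.35 ± 1.31, n = 3), with each neighbor overlapping the next, and then, apart from these, the marginal zone lymphoma (8.94), diffuse large B cell lymphoma (8.63 ± 0.98, n = 6) and the acute leukemia (8.57). LGALS3 ran from osteosarcoma (13.45 ± 0.10) through hemangiosarcoma (13.32 ± 0.29), hematoma (13.16 ± 0.39), chronic lymphocytic leukemia (12.76 ± 0.99) and T-zone lymphoma (11.77 ± 2.35) to marginal zone lymphoma (8.80), diffuse large B cell lymphoma (8.54 ± 1.08) and the acute leukemia (7.85), and no neighbors in that order were separate. These galectin-3 values were thus tight in culture and wide in T-zone lymphoma, where 1 array, Rose, read 7.05 and the others 11.90 to 13.09. On a second probe set the SD was 0.40 in hemangiosarcoma, 0.25 in osteosarcoma and 0.79 in hematoma. S100A9 fell into a high and a low part, with chronic lymphocytic leukemia (11.30 ± 1.37), acute leukemia (10.61), marginal zone lymphoma (10.39), T-zone lymphoma (8.34 ± 1.21) and diffuse large B cell lymphoma (6.91 ± 1.83) above hemangiosarcoma (3.94 ± 0.27), hematoma (3.78 ± 0.14) and osteosarcoma (3.76 ± 0.14), and a break between the ranges of the last lymphoma and the first cultured group. For LGALS1 the 8 means lay between 5.89 and 6.58 and all neighbors overlapped.

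**Figure D1:**
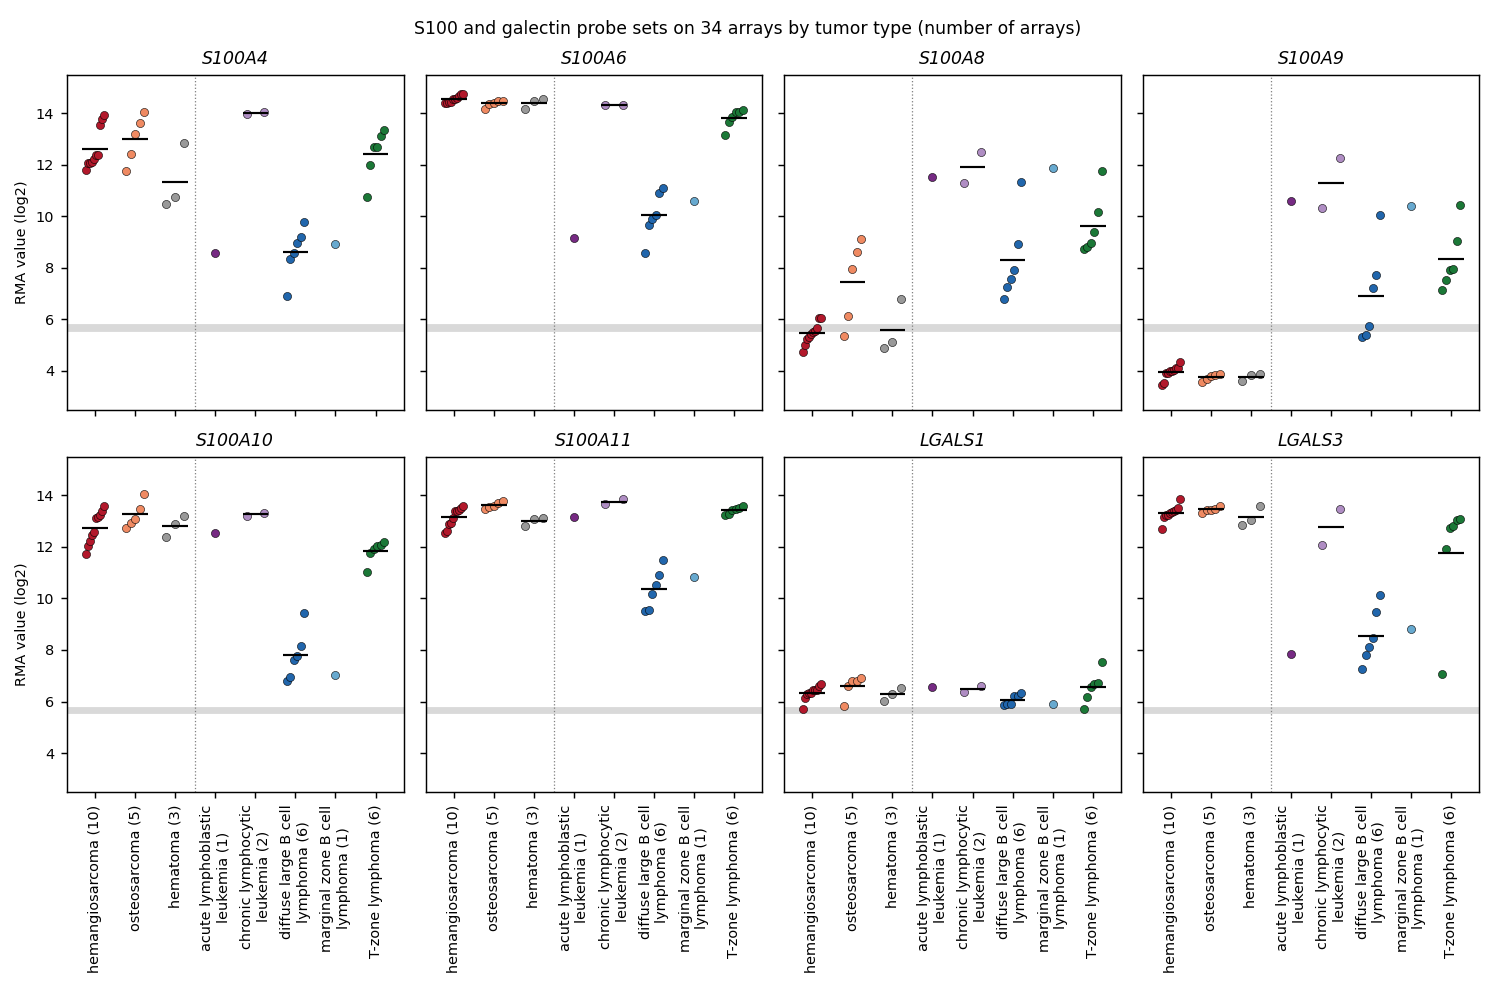
Each panel plots 1 gene's main probe set, with the RMA value in log2 units on the vertical axis and tumor type on the horizontal axis. Points are arrays, black lines are group means, the grey band is the range of the array medians (5.57 to 5.77), and the dotted line parts cultured from primary cells. S100A4, S100A6, S100A10 and S100A11 are lower in the 6 diffuse large B cell lymphomas than in the 6 T-zone lymphomas with no overlap, and S100A9 lies below the grey band on all 18 cultured arrays.

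The lymphomas of B and T cells differed in 5 of the genes. Diffuse large B cell lymphoma was set against T-zone lymphoma with limma across 21799 probe sets, and 4019 of them (18.4%) passed an adjusted p of 0.05 in either direction. Of the 8 genes tested, 5 passed and all 5 were lower in diffuse large B cell lymphoma, a direction in which 9.31% of all tested probe sets passed. The median difference over the 8 genes was -3.15, against 0.04 over all probe sets tested.

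S100A10, the annexin A2 partner, was 7.75, 6.95, 7.62, 6.79, 9.45 and 8.16 in diffuse large B cell lymphoma (Benson, Cooper, Sally, Kaycee, Snuggles and Chieftain), against 11.76, 12.19, 11.03, 12.06, 12.02 and 11.91 in T-zone lymphoma (Newman, Niki, Rose, Shilo, Thunder and Fire). The groups did not overlap, and Snuggles was the highest of the B cell arrays. The difference was -4.04 (SE 0.38, 16.5-fold lower, adjusted p = 1.73e-05 by limma). Of the other 5 probe sets of S100A10, 4 gave -2.92 to -4.30, all past the threshold and without overlap, and the remaining one, which read between 4.88 and 6.67 over all 34 arrays, near their medians, gave 0.11 (adjusted p = 0.839).

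S100A4, the myosin partner, was 8.59, 8.36, 8.95, 6.90, 9.18 and 9.77 in diffuse large B cell lymphoma, against 11.98, 13.11, 10.75, 13.34, 12.69 and 12.69 in T-zone lymphoma, in the same order of dogs. Kaycee was the lowest B cell array and Rose the lowest T cell array, and the ranges stayed apart. The difference was -3.80 (SE 0.49, 13.9-fold lower, adjusted p = 0.000169 by limma).

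S100A6 was 9.89, 9.65, 10.03, 8.60, 11.11 and 10.92 in diffuse large B cell lymphoma, against 13.16, 14.14, 14.04, 14.07, 13.86 and 13.66 in T-zone lymphoma. The 2 ranges did not meet, and the T-zone values were close to the ceiling of the scale, since the highest value of any probe set on these arrays was 14.98. The difference was -3.79 (SE 0.36, adjusted p = 1.83e-05 by limma), with no fold given so near the ceiling, and the other probe sets of the gene gave -3.73 and -4.70, both without overlap.

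S100A11 was 10.15, 9.51, 9.53, 11.48, 10.52 and 10.89 in diffuse large B cell lymphoma, against 13.24, 13.42, 13.27, 13.52, 13.58 and 13.46 in T-zone lymphoma. The T-zone arrays lay within 0.34 of each other, while the B cell arrays spanned 1.97. On a second, dimmer probe set these spans were 0.68 and 1.52, so the contrast in spread depended in part on the probe set. The difference was -3.07 (SE 0.30, 8.38-fold lower, adjusted p = 2.16e-05 by limma), and the second probe set gave -3.65. The gene's dimmest probe set stayed under the filter on low values and was not tested. Separation without overlap, as these 4 genes showed, was found for 7.74% of all tested probe sets.

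LGALS3, galectin-3, was 7.81, 8.45, 8.11, 7.25, 9.48 and 10.14 in diffuse large B cell lymphoma, against 11.90, 13.04, 7.05, 12.75, 12.80 and 13.09 in T-zone lymphoma. Rose, at 7.05, was below every B cell array, while the other 5 T-zone arrays were above every one of them. A second probe set of the gene also placed Rose apart, at 6.41 against 10.92 to 12.60 on the other T-zone arrays. The difference of -3.23 (SE 0.90, 9.39-fold lower, adjusted p = 0.0230 by limma) no longer passed when Niki, Shilo or Fire was left out (adjusted p = 0.0535, 0.0539 and 0.0520), and without Rose it was -4.18 (adjusted p = 5.71e-05).

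The marginal zone lymphoma, a B cell tumor with a single array, Bitsy, read 8.94 for S100A4, 10.59 for S100A6, 7.04 for S100A10, 10.85 for S100A11 and 8.80 for LGALS3, each inside the range of diffuse large B cell lymphoma. With it added, all 6 T-zone arrays still lay above all 7 B cell arrays for S100A4, S100A6, S100A10 and S100A11, with gaps between the nearest arrays of 0.97, 2.05, 1.58 and 1.76. The 5 T cell markers were all lower in diffuse large B cell lymphoma as well, among them CD3E, a chain of the T cell receptor complex (-2.77, adjusted p = 0.000327), and CD5 (-3.19, adjusted p = 0.000151). Summed fibroblast markers were 13.16 in Snuggles, which had the highest S100A6 and S100A10 of the diffuse large B cell lymphomas, and 8.85 to 9.56 on the other 5 arrays of that group, against 9.36 to 11.64 in T-zone lymphoma. Without Snuggles the differences of S100A10 and S100A6 were -4.38 and -4.00. How far T cells or stromal cells in a sample set the S100 values was not tested, and in these bulk samples fewer cells of a type and less RNA per cell cannot be told apart.

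S100A8, S100A9 and LGALS1 did not pass. S100A8 was 11.31, 7.25, 7.55, 6.79, 8.92 and 7.93 in diffuse large B cell lymphoma, against 11.74, 9.38, 8.75, 8.97, 10.17 and 8.80 in T-zone lymphoma (difference -1.34, 95% confidence interval -2.86 to 0.17, adjusted p = 0.217 by limma). S100A9 was 10.06, 5.74, 5.40, 5.34, 7.74 and 7.21 against 10.44, 7.93, 7.13, 7.95, 9.04 and 7.54 in the same order of groups and dogs (difference -1.43, 95% confidence interval -3.07 to 0.22, adjusted p = 0.231). Benson among the B cell arrays and Newman among the T-zone arrays were highest for both genes. Without Benson both genes passed, S100A8 at -1.95 (adjusted p = 0.0262) and S100A9 at -2.05 (adjusted p = 0.0366). Neither passed when any other single array was left out. At the other end of these settings the differences shrank to -0.92 for S100A8 and -1.01 for S100A9, with adjusted p by limma up to 0.407 and 0.420.

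**Figure D2:**
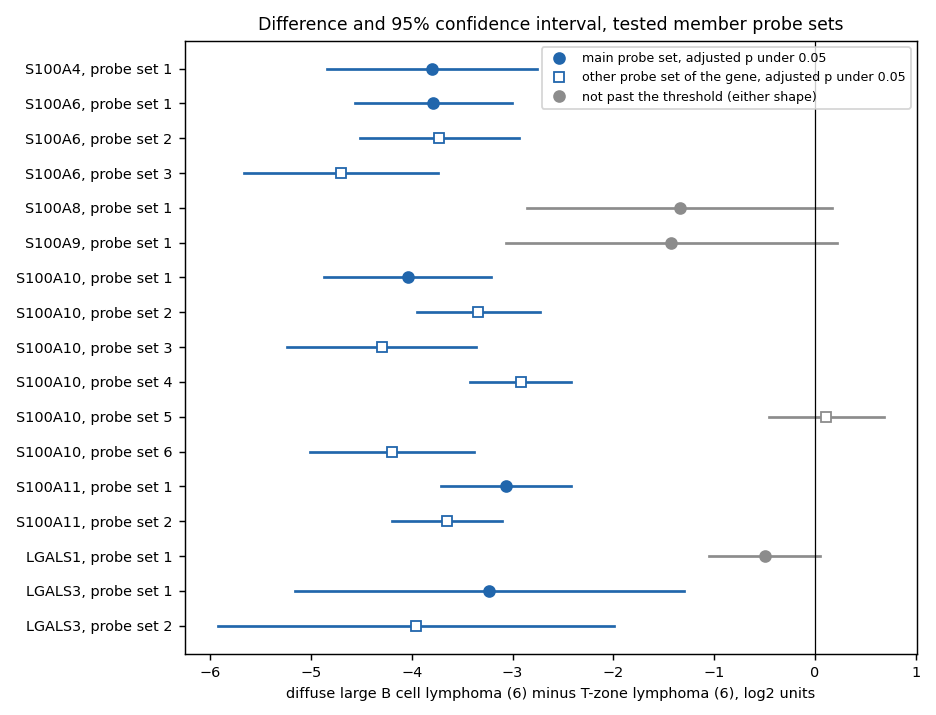
Differences between diffuse large B cell lymphoma and T-zone lymphoma (horizontal axis, log2 units, 6 arrays each) with 95% confidence intervals from limma, for the 17 member probe sets that were tested. Filled circles are main probe sets and open squares the other probe sets of a gene, with blue for an adjusted p under 0.05 and grey for the rest. Probe sets of S100A4, S100A6, S100A10, S100A11 and LGALS3 lie to the left of 0, except the fifth of S100A10 at 0.11.

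Among the annexins, whose members bind S100 proteins at membranes, 3 of 7 were lower and 1 was higher in diffuse large B cell lymphoma. ANXA2, the partner of S100A10, was 9.27 ± 1.04 in diffuse large B cell lymphoma and 12.07 ± 1.34 in T-zone lymphoma (SD, n = 6 each; difference -2.80, adjusted p = 0.00573 by limma). ANXA5 and ANXA6 differed by -2.09 and -1.32, and ANXA4 by 1.25. Of 4 other S100 genes tested, only S100A2 passed, at -2.96 (SE 0.56, adjusted p = 0.00250). Of 9 partner genes tested, MYH9, the myosin heavy chain that S100A4 binds (-1.21), and CD44, the hyaluronan receptor (-2.49), were lower, and none of 3 other galectins passed. TLR4, a receptor for S100A8 and S100A9, was higher in diffuse large B cell lymphoma, at 7.72 ± 0.97 against 6.19 ± 0.67 in T-zone lymphoma (SD, n = 6 each).

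Leukemia was then set against lymphoma, 3 arrays against 13. None of the 8 genes passed an adjusted p of 0.05 in limma, at which 2.12% of 24925 probe sets passed, and 3 had an unadjusted p under 0.05, as did 21.8% of all tested probe sets. S100A10 was 12.54 in the acute leukemia Rascal and 13.31 and 13.21 in the chronic leukemias Maddle and Forrest, against 6.79 to 12.19 with a median of 9.45 in the lymphomas. The 2 groups did not overlap, as was the case for 3.01% of tested probe sets, and the difference was 3.43 (SE 1.23, adjusted p = 0.129). S100A9 was 10.61, 12.26 and 10.33 in the same leukemias, against 5.34 to 10.44 with a median of 7.74 in lymphoma (difference 3.23, SE 0.98, adjusted p = 0.0864). S100A8 was 11.51, 12.51 and 11.29 in leukemia, against 6.79 to 11.89 with a median of 8.92 in lymphoma (difference 2.58, SE 0.92, adjusted p = 0.127).

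The leukemias were not alike. In chronic lymphocytic leukemia the values of Maddle and Forrest were 14.06 and 13.96 for S100A4, 14.30 and 14.34 for S100A6 and 12.06 and 13.46 for LGALS3. The acute leukemia read 8.57, 9.18 and 7.85 for these genes, inside the ranges of diffuse large B cell lymphoma. Its S100A10 (12.54) and S100A11 (13.14) were above the highest values of that lymphoma, 9.45 and 11.48. They were below the chronic leukemias (13.31 and 13.21 for S100A10, 13.85 and 13.65 for S100A11). With 1 acute array this difference has no replicate check. The excess of the 3' over the 5' end of the actin control, a sign of RNA breakdown, was 4.06 in the acute leukemia and 2.61 and 5.35 in the chronic ones, against -1.81 to 2.95 in lymphoma, and its part in these values was not tested. Of the 7 annexins, ANXA11 was higher in leukemia (1.89, adjusted p = 0.0359) and the other 6 did not pass.

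S100A8 and S100A9 moved together in the primary samples. Over the 16 primary arrays their Pearson correlation was 0.98 and their Spearman correlation 0.98, and r stayed at 0.98 without the 2 arrays farthest from the median of S100A9. Within diffuse large B cell lymphoma r was 0.97 and within T-zone lymphoma 0.98 (6 arrays each), though without the 2 farthest arrays of each group it was 0.78 and 0.75. These points share the arrays and their processing. Of 10409 genes ranked by correlation over the same arrays, S100A9 was the nearest to S100A8, followed by PGLYRP1 (r = 0.86), which encodes a peptidoglycan-binding protein of neutrophil granules, and SERPINA1 (r = 0.85), which encodes an inhibitor of neutrophil elastase. For S100A9 the next were SERPINA1 (r = 0.88) and PGLYRP1 (r = 0.86).

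Markers of myeloid cells were read beside them. The summed signal of the 18 myeloid markers on the array was 12.07 in the acute leukemia, 13.94 and 13.95 in the chronic leukemias, 12.25 to 12.61 in diffuse large B cell lymphoma, 12.79 in marginal zone lymphoma and 11.31 to 13.61 in T-zone lymphoma. LYZ, lysozyme, supplied much of it, averaging 11.80 in diffuse large B cell lymphoma and 12.04 in T-zone lymphoma. MPO, the peroxidase of granulocytes, averaged 7.0 in the acute leukemia, 4.1 in the chronic leukemias, 5.2 in diffuse large B cell lymphoma and 5.6 in T-zone lymphoma, and was above the array median on 5 of the 16 primary arrays. Over the 16 primary arrays the correlation of the summed signal with S100A9 was 0.57 (Spearman 0.53) and with S100A8 0.54 (Spearman 0.55). Newman had the highest sum of the T-zone arrays (13.61) along with the highest S100A8, whereas Benson's sum (12.35) was inside the range of the other B cell arrays. The unweighted mean of the same markers, which LYZ does not dominate, was highest in Benson among the diffuse large B cell lymphomas (6.72, against 5.88 to 6.44 in the other 5) and highest in Newman among the T-zone lymphomas (7.54). Benson also had the highest hybridization controls of all arrays (11.30), while Newman's were 10.17. Within diffuse large B cell lymphoma S100A9 had r = 0.83 with these controls (Spearman 0.43) and 0.32 with the myeloid sum. In T-zone lymphoma the 2 coefficients were 0.04 and 0.68. The part of myeloid cells or of the hybridization controls in the S100A8 and S100A9 values was not tested.

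**Figure D3:**
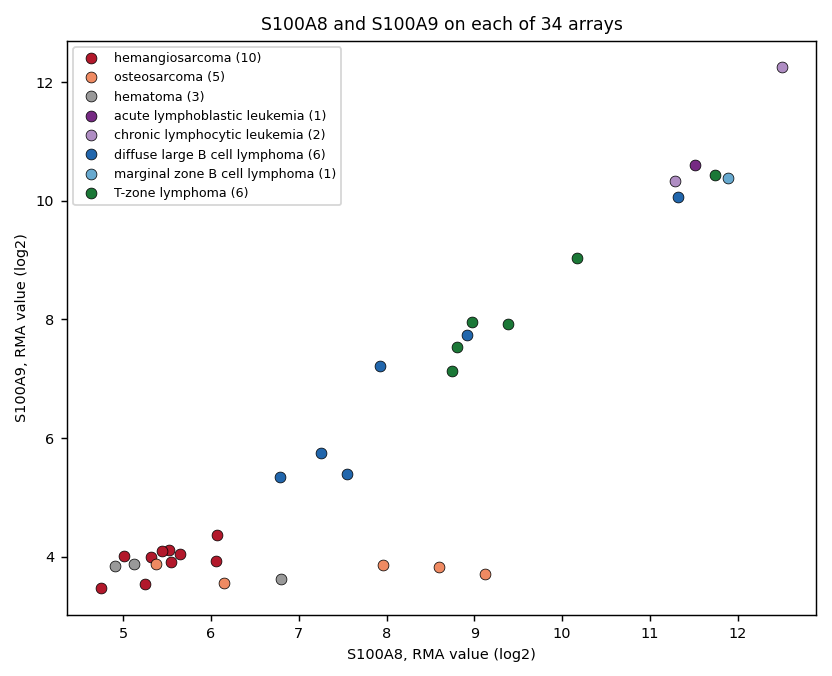
S100A8 (horizontal axis) and S100A9 (vertical axis) as RMA values in log2 units, 1 point per array, colored by tumor type. The 16 primary arrays follow a line (r = 0.98), while the cultured arrays stay at an S100A9 value of 3.46 to 4.36, including OSCA59, OSCA75 and OSCA71, whose S100A8 values were 8.60, 7.96 and 9.12.

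Cultured cells of all 3 kinds were set against the primary lymphoid tumors, 18 arrays against 16. Lineage and culture differ together in this contrast and cannot be told apart. Of 22091 probe sets 43.3% passed an adjusted p of 0.001 in either direction, and 4 of the 7 genes tested did, which with 7 genes is no result about the members. Of the 4, S100A8 entered the test through the primary tumors. The median difference over the members was 1.78, against -0.06 over all tested probe sets.

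LGALS3 ranged from 12.71 through a median of 13.37 to 13.84 in cultured cells, and from 7.05 through 9.81 to 13.46 in primary tumors (difference 3.08, SE 0.54, 8.44-fold higher, adjusted p = 8.22e-06 by limma). S100A10 ranged from 11.72 through 13.01 to 14.06 in cultured cells, and from 6.79 through 11.39 to 13.31 in primary tumors (difference 2.67, SE 0.57, adjusted p = 0.000123). S100A6 ranged from 14.16 through 14.47 to 14.76 in cultured cells, and from 8.60 through 12.14 to 14.34 in primary tumors (difference 2.51, SE 0.48, adjusted p = 2.95e-05). The groups overlapped for all 3 genes, for S100A6 through chronic lymphocytic leukemia and for LGALS3 and S100A10 through T-zone lymphoma as well. For S100A10 the acute leukemia also lay within the cultured range. The SD of LGALS3 was 0.27 in cultured cells and 2.40 in primary tumors, while the cultured values of S100A6 lay so near the top of the scale that their spread cannot be read.

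S100A4 and S100A11 had positive differences that missed this threshold, at 1.78 (SE 0.58, adjusted p = 0.00805) and 1.12 (SE 0.38, adjusted p = 0.0100). A second probe set of S100A11 did pass, at 1.85 (adjusted p = 0.000387), so the call for that gene depended on the probe set. LGALS1 differed by 0.07 (95% confidence interval -0.21 to 0.35, adjusted p = 0.670). It has 1 probe set, with values of 5.71 to 6.91 in cultured cells and 5.72 to 7.52 in primary tumors. These lie near the array medians, so the small difference is that of a dim probe set.

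S100A8 was lower in cultured cells, with 4.75 to 9.12 and a median of 5.53, against 6.79 to 12.51 and a median of 9.18 in primary tumors (difference -3.64). It was above the array median on 8 of 18 cultured and all 16 primary arrays, so it passed the filter through the primary tumors. Its difference is therefore given as a description, without a fold. S100A9 was above the array median on 14 arrays, all of them primary, and so was not tested. It was 3.46 to 4.36 in cultured cells and 5.34 to 12.26 in primary tumors, with no overlap, as was the case for 7.39% of tested probe sets. The summed myeloid markers were 8.93 to 9.44 in cultured cells and 11.31 to 13.95 in primary tumors, LYZ was 2.50 to 3.92 in cultured cells and 10.41 to 13.43 in primary tumors, and their part in the difference was not tested.

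Of the 7 annexins, 5 were higher in cultured cells, led by ANXA5 (4.18), ANXA1 (3.63) and ANXA2 (3.30). AHNAK, a large scaffold that binds S100A10 with annexin A2, was higher by 3.32, and of the plasminogen activators, PLAT, whose product tPA acts on plasminogen at the cell surface, was higher by 2.74 and PLAU, which encodes urokinase, by 3.68. In all, 6 of 11 partner genes tested were higher and 1, PTPRC, the leukocyte phosphatase CD45, was lower (-4.84). Of 4 other S100 genes tested, S100A13 (2.29) and S100A16 (2.61) were higher and S100P (-2.90) was lower, and of 3 other galectins LGALS9 was lower, with 6.07 ± 0.48 in cultured cells (SD, n = 18) and 9.25 ± 0.84 in primary tumors (SD, n = 16).

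**Figure D4:**
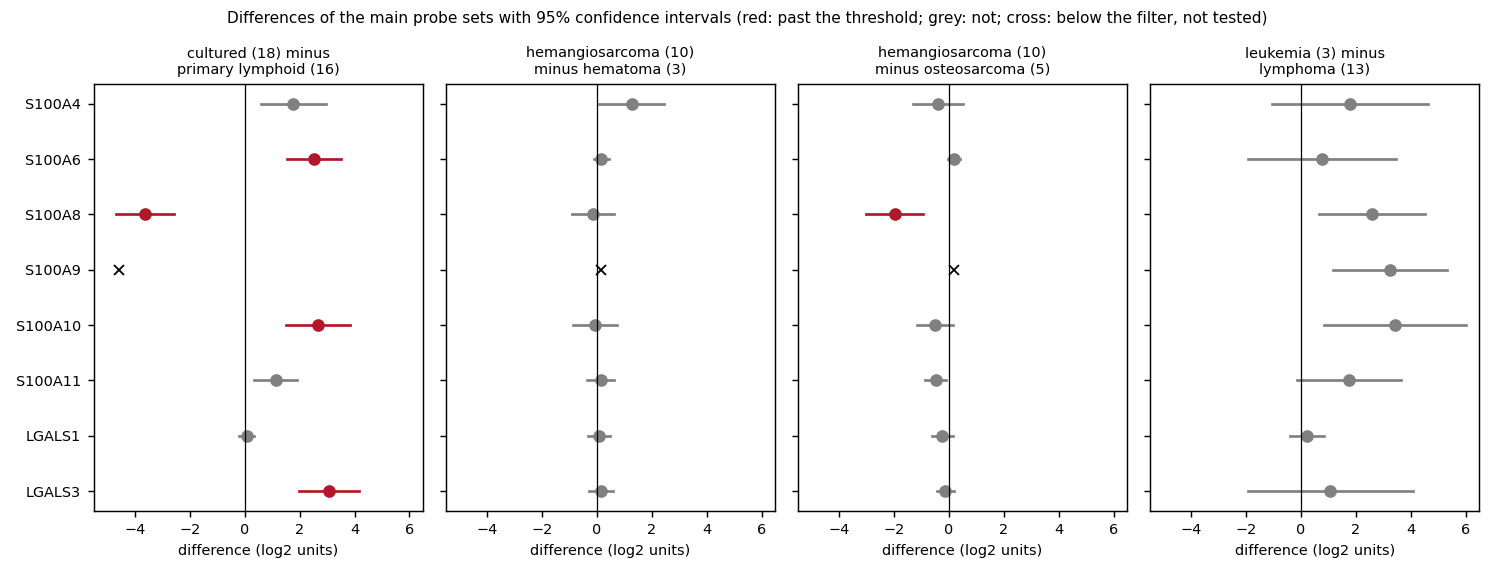
Differences of the 8 main probe sets (horizontal axes, log2 units) in 4 comparisons, with 95% confidence intervals from limma and the numbers of arrays in brackets. Red marks a difference past the threshold of its comparison, grey one that was not, and a cross a gene below the filter on low values. LGALS3, S100A6 and S100A10 were past it to the right and S100A8 to the left in cultured cells, S100A8 was past it in hemangiosarcoma against osteosarcoma, and 0 genes were past it in the other panels. In the panel of cultured against primary cells, S100A8 entered the test through the primary tumors.

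Hemangiosarcoma was set against hematoma, the study's comparison of malignant with non-malignant cultures. None of the 7 genes tested passed an adjusted p of 0.1 in limma, which 62 of 23341 probe sets (0.266%) did, and 1 of the 7, S100A4, had an unadjusted p under 0.05, as did 9.7% of all tested probe sets. S100A4 was 13.94, 13.78, 13.53, 12.21, 12.10, 12.36, 12.07, 12.36, 11.78 and 12.05 in the hemangiosarcoma lines (ChadG4, ChadG6, ChadG8, Frog, Journey, Tucker, Joey, DD1, ChadP9 and Dal4), against 12.85, 10.73 and 10.46 in the hematomas Pippin, Baxter and Kylie. The groups overlapped because Pippin lay above 7 of the 10 lines. The difference was 1.27 (95% confidence interval 0.09 to 2.46, unadjusted p = 0.0375, adjusted p = 0.492), and it moved between 0.83 and 2.02 when single arrays were left out. For S100A6, S100A8, S100A10, S100A11, LGALS1 and LGALS3 the differences were 0.16, -0.15, -0.06, 0.14, 0.07 and 0.16, and the widest of their confidence intervals, that of S100A10, ran from -0.85 to 0.72. Of 10 partner genes tested, CD44 was higher in hemangiosarcoma (1.19, adjusted p = 0.0497).

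Hemangiosarcoma was also set against osteosarcoma, in which 27.9% of 22901 probe sets passed an adjusted p of 0.05 and 1 of 7 genes tested did. S100A8 was 4.75 to 6.07 with a median of 5.48 over the 10 hemangiosarcoma lines, against 5.37, 6.15, 8.60, 7.96 and 9.12 in the osteosarcoma lines OSCA20, OSCA23, OSCA59, OSCA75 and OSCA71. The last 4 stood above every hemangiosarcoma line, OSCA23 only just, while OSCA20 lay among them. The difference was -1.98 (SE 0.48, adjusted p = 0.00724 by limma), with 3 of 10 hemangiosarcoma and 4 of 5 osteosarcoma arrays above their medians and hence no fold given, and with golden retriever arrays alone, 6 against 5, it was -1.89 (adjusted p = 0.0535). S100A9, the partner of S100A8, did not follow, with 3.46 to 4.36 in hemangiosarcoma and 3.55 to 3.88 in osteosarcoma, and neither did the summed myeloid markers, with 8.93 to 9.44 in hemangiosarcoma and 9.07 to 9.38 in osteosarcoma. The hybridization controls were 9.23 to 9.76 in hemangiosarcoma, against 9.96 and 10.52 on OSCA20 and OSCA23 and 10.79, 10.23 and 10.32 on OSCA59, OSCA75 and OSCA71, so they did not overlap between the groups. Their part in the difference was not tested.

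S100A11 was 12.55 to 13.58 with a median of 13.26 in hemangiosarcoma, against 13.47, 13.70, 13.53, 13.60 and 13.78 in osteosarcoma, and just missed the threshold (-0.47, SE 0.18, adjusted p = 0.0577). A second probe set of the gene gave 0.05, so its direction depended on the probe set. It passed without ChadG8 (adjusted p = 0.0447) or DD1 (0.0421), and LGALS1 (-0.24, adjusted p = 0.357) passed without OSCA20 (-0.43, adjusted p = 0.0488). Outside the members, S100A13 (-1.22, adjusted p = 0.000389) and LGALS9 (-0.84, adjusted p = 0.00363) were lower in hemangiosarcoma without overlap, ANXA1 was higher by 0.41, and of the partners PLAU (2.28), PLAT (2.16) and ITGB1 (1.40) were higher.

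Golden retriever hemangiosarcoma was set against the 21 other tumors, the study's second comparison. None of the 8 genes passed an adjusted p of 0.001 in limma, which 7.86% of 25303 probe sets did, and 4 of them had an unadjusted p under 0.05, as did 48.9% of all tested probe sets. S100A8 was 4.75 to 6.07 with a median of 5.58 in the 6 lines, against 5.37 to 12.51 with a median of 8.92 in the other tumors (difference -3.59). Only 3 of all 10 hemangiosarcoma arrays read S100A8 above their medians, so it passed the filter through the other tumors. Its difference is therefore given as a description. For the same reason no support is drawn from its passing without OSCA20 or OSCA23, the osteosarcomas with the lowest values. S100A9 was 3.46 to 4.36 with a median of 3.99, against 3.55 to 12.26 with a median of 7.54. All 14 arrays on which it was above the array median were among the other tumors, so it passed the filter through them alone, and its difference of -3.42 is given as a description. LGALS3 (2.33, adjusted p = 0.0629) and S100A6 (2.01, adjusted p = 0.0595) were next, with the other tumors split between high and low values as their types were. The osteosarcomas are cultured like the 6 lines and the other 16 tumors are not, so lineage and culture cannot be told apart here either.

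Within hemangiosarcoma, the 6 golden retriever lines were set against the 4 of other breeds. None of the 6 genes tested passed an adjusted p of 0.1 in limma, nor did any of the 22244 probe sets (0%), of which 743 (3.34%) had an unadjusted p under 0.05. S100A4 came nearest, with 13.94, 13.78, 13.53, 12.21, 12.10 and 12.36 in golden retrievers against 12.07, 12.36, 11.78 and 12.05 in Joey, DD1, ChadP9 and Dal4 (difference 0.92, 95% confidence interval 0.04 to 1.80, unadjusted p = 0.0413, adjusted p = 0.999). ChadG4, ChadG6 and ChadG8 stood more than 1 unit above the other 7 lines, which lay between 11.78 and 12.36. ChadG4, ChadG6 and ChadG8 also held the 3 highest LGALS1 values of the 10 lines, at 6.69, 6.46 and 6.62, and for S100A10 they read 13.40, 13.58 and 13.15, against 12.48, 12.23 and 12.03 in Frog, Journey and Tucker and 11.72, 13.24, 12.56 and 13.11 in Joey, DD1, ChadP9 and Dal4, so that they did not stand apart for that gene. The labels give no batch for these arrays.

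Within the 18 cultured arrays, each gene's nearest patterns were found by Pearson correlation over 10208 genes, as a description in which the points share tumor type and processing. S100A10 was nearest to LMNA, which encodes the nuclear lamins A and C (r = 0.87), S100A4 to ENOSF1 (0.85) and CYB5R3 (0.83), S100A6 to RPS6KA2 (0.86), S100A11 to WNT3 (0.89), LGALS3 to HADH (0.82) and LGALS1 to CNBD2 (0.83). S100A9, which stayed below the array median, was nearest to GPSM3 at 0.75. For S100A8, whose cultured values rest on 3 osteosarcoma arrays, and for the 5 genes that split the primary arrays into a high and a low cluster, no coefficient is given. In the primary arrays the nearest genes were FLT3LG and S100A6 for S100A4, TRAT1, a T cell receptor adaptor, for S100A6, GPX1 for S100A10, SIT1, another lymphocyte signaling adaptor, for S100A11 and FGL2 for LGALS3.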

How the data were processed

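RNA was hybridized to Affymetrix Canine_2 arrays, 1 per dog. The log2 values were made by the authors with RMA in the affy package (versions not given in the sources used here), which corrects background, normalizes between arrays and summarizes probes. Whether all 34 arrays were normalized in 1 run is not stated. After removal of 175 controls from 43035 probe sets, 42860 remained. Gene symbols came from the array's platform annotation, which can be old. Of the other probe sets, 29254 had 1 symbol, 439 several and 13167 none, and only those with 1 symbol were named. The number of arrays limits the precision.

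Groups came from the tumor type, breed and cell source in the labels. For each of 7 comparisons, a probe set entered the test only where the number of arrays that read it above their own median reached the size of the smaller group. Differences were tested with limma 3.58.1 in R 4.3.3 (lmFit and eBayes, two-sided), with Benjamini-Hochberg adjustment over all probe sets tested and no further normalization. Thresholds on the adjusted p were 0.1 for hemangiosarcoma against hematoma and between breeds, 0.001 for the 2 comparisons across tumor kinds and 0.05 for the rest. The golden retriever, hemangiosarcoma and cultured arrays recur in several comparisons, which are therefore not independent. Main probe sets had the highest mean of a gene's probe sets. The procedure was tested on simulated data, in which 76% of added differences of 2 log2 units were found for diffuse large B cell against T-zone lymphoma (38 of 50, with 21799 probe sets). Named genes were all members and fixed lists of related S100 genes, galectins, annexins, receptors, partners and cell markers (94 genes, 85 on the array), from which those that passed are named. The members and lists were chosen with earlier results of these data known. Alternatives were no filter, an intensity trend with robust prior, median centering, quantile normalization, 1 fit with all 34 arrays, equal weights for tumor types, array weights, second probe sets, golden retrievers only and leaving out each array. Leaving out ChadG4 and Dal4, the leukemias or the acute leukemia was added after seeing the data. Figures were drawn with matplotlib 3.10.9.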

Additional observations from a re-analysis of the deposited data

Results flagged for a closer look

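Of 32 sets of 1 gene in 1 group of 4 to 10 arrays, 2 held an array far from the others by Dixon's ratio of gap to range, which chance passes in about 1 of 20 sets. Both were the T-zone lymphoma of Rose. LGALS3 was 7.05 on that array and 11.90 to 13.09 on the other 5, and the gap was 0.804 of the range. S100A10 was 11.03 on that array and 11.76 to 12.19 on the others, with a ratio of 0.628. Rose had the highest summed T cell markers of the group (14.71), summed myeloid markers of 12.30 and a 3' to 5' actin difference of -1.81, the lowest of all arrays. The part of these in the low galectin-3 value was not tested.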

How the results depend on the processing

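Of 1342 alternative values for single genes, 1275 kept their direction and side of the threshold, 38 came to pass, 4 no longer passed and 25 changed sign. The cause of these changes was not tested. No paired analysis was possible because each array came from a different dog. S100A4, S100A8, S100A9 and LGALS1 have 1 probe set each and could not be counted with second probe sets in any comparison. Against osteosarcoma, the count of genes called in hemangiosarcoma was 1, and became 2 with the intensity trend and robust prior, 2 with quantile normalization, 0 with second probe sets, where S100A8 could not be counted, 0 with golden retrievers only and 1 to 2 without single arrays. For golden retriever hemangiosarcoma against other tumors it was 0, and became 6 in 1 fit with all 34 arrays, 2 with array weights, 6 with equal weights for tumor types and 0 to 1 without single arrays. The 2 with array weights were S100A8 and S100A9, which were also among the 6 in both other settings. The 1 without single arrays was S100A8. Both genes passed the filter through the other tumors, so these calls of them are no result about the members. For leukemia against lymphoma the count was 0, and became 5 in 1 fit with all 34 arrays, 1 with array weights and 3 with equal weights for tumor types. Between diffuse large B cell and T-zone lymphoma it stayed between 4 and 7 without single arrays, and in cultured against primary cells at 4. The cultured against primary count was 6 in 1 fit with all 34 arrays and with equal weights for tumor types, where S100A4 and S100A11 passed as well, 5 with no filter or golden retrievers only, and 4 under the other settings.

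Small differences changed sign. Those of hemangiosarcoma over hematoma came to 0.0094 for S100A10 with array weights, and without single arrays ran from -0.28 to 0.13 for S100A10, -0.051 to 0.19 for LGALS1, -0.50 to 0.45 for S100A8 and -0.0078 to 0.37 for LGALS3. S100A11 over osteosarcoma was 0.051 with the second probe set. LGALS1 in golden retriever hemangiosarcoma over other tumors was -0.017 with quantile normalization and -0.020 to 0.090 without single arrays. In leukemia over lymphoma, S100A6 ran from -0.084 to 2.50 and LGALS3 from -0.099 to 2.71 without single arrays, lowest without Forrest and highest without the acute leukemia. Between breeds, S100A6 was 0.026, 0.025 and 0.0065 with quantile normalization, array weights and second probe sets, and without single arrays ran from -0.047 to 0.060, S100A10 from -0.16 to 0.35 and LGALS3 from -0.12 to 0.26.

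Counts over all probe sets moved as well. For hemangiosarcoma over hematoma, 62 became 7 without Baxter, 200 without Pippin, 39 without ChadG6, 33 with array weights and 182 in 1 fit with all arrays. For golden retriever hemangiosarcoma over other tumors, 1990 became 7348 in 1 fit, 10278 with array weights, 7215 with equal weights and 931 to 3042 without single arrays. For leukemia over lymphoma, 528 became 4885, 3644 and 4787 under the same settings and 254 to 1402 without single arrays, and for hemangiosarcoma over osteosarcoma 6378 became 3627 with golden retrievers only.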
